A study of Mus musculus with 186 samples.

Results

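The caseins and other milk protein genes were followed through single cells of the adult mouse mammary gland. They were taken as a list of 10 genes by symbol, out of 25275 symbols in the count files: the caseins Csn1s1, Csn1s2a, Csn1s2b, Csn2 and Csn3, the whey protein genes Wap, Lalba, Glycam1 and Ltf, and Mfge8. The series holds 186 cells of untreated female FVB/NJ mice labelled Adult (10 weeks old), 96 sorted as Adult basal and 90 as Adult luminal. Both populations were gated as negative for the blood and endothelial antigens Ter119, CD31 and CD45, with high CD29 and CD24 marking basal cells and low CD29 with CD24 marking luminal cells. The cells came from 8 mice in all, but no label ties a cell to an animal or gives a reproductive stage, so each population counts as 1 sample and no difference has a replicate check. The labels name 3 PCR plates: A held basal cells, C held luminal cells and B held both.

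Milk proteins are made by the secretory luminal cells of the alveoli in late pregnancy and lactation, when prolactin signalling through JAK2 and STAT5, together with glucocorticoid, drives their transcription. The calcium-sensitive caseins (αS1-casein from Csn1s1, the αS2-like caseins from Csn1s2a and Csn1s2b, and β-casein from Csn2) bind calcium phosphate and aggregate. κ-casein, from Csn3, coats the resulting micelle and keeps it in suspension, and its gene is of separate evolutionary origin. The whey fraction holds whey acidic protein (Wap), α-lactalbumin (Lalba), which turns a galactosyltransferase into lactose synthase, and the iron-binding lactoferrin (Ltf). Glycam1 is a mucin-like milk protein, and Mfge8 is a glycoprotein of the milk fat globule membrane that also bridges apoptotic cells to phagocytes.

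The 5 caseins lie in 1 cluster on chromosome 5. By RefSeq on GRCm38.p6 (the mm10 assembly), Csn1s1 occupies chr5:87666208-87682578, Csn2 chr5:87692619-87699429, Csn1s2a chr5:87774450-87788798, Csn1s2b chr5:87808121-87824421 and Csn3 chr5:87925579-87932550. Wap is at chr11:6635483-6638654, Lalba at chr15:98480400-98482934, Glycam1 at chr15:103562759-103565081, Ltf at chr9:111019292-111042766 and Mfge8 at chr7:79133768-79149060. RefSeq start-site windows matched 8 of the 10 genes. The 250 bases before the RefSeq transcript start are shown for the 3 calcium-sensitive caseins that varied together across cells and for Glycam1, of which no cell held a read. Capitals mark matches to TTCNNNGAA, the letters of the STAT5 core motif, which reads the same on both strands.
Csn1s1, chr5:87665958-87666207, plus strand: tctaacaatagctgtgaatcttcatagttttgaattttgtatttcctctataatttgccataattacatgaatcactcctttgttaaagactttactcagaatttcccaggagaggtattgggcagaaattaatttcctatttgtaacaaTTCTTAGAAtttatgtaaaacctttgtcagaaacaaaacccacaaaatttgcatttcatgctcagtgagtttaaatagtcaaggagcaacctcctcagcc
Csn2, chr5:87699426-87699675, minus strand: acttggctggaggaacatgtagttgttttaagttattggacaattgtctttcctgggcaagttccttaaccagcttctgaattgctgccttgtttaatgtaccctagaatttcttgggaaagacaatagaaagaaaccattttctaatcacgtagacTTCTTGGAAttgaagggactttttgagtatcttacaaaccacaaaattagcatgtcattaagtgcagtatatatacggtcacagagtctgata
Csn1s2a, chr5:87774200-87774449, plus strand: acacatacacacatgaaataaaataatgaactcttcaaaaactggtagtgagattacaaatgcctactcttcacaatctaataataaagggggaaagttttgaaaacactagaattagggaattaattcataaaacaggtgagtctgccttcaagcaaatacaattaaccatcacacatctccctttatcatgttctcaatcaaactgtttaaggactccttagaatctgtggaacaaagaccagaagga
Glycam1, chr15:103565082-103565331, minus strand: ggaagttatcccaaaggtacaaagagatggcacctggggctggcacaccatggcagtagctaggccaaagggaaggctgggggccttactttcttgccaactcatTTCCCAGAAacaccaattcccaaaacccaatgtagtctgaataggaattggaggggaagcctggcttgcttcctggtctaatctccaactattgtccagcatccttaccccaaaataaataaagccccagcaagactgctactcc

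The match lay 100 to 92 bases before the start of Csn1s1, 93 to 85 before that of Csn2 and 145 to 137 before that of Glycam1. The start used for Csn2 lies inside the gene span given above, so that 4 bases of its window do too. The window of Lalba lay wholly inside its gene span (250 of 250 bases), and 5 bases of that of Wap did. The match was present in 3 of the 8 windows and in 7.04% of 32536 distinct windows of the same length over all genes. The looser letters TTNNGNAA, the core of C/EBP sites, were found on either strand in 7 of the 8 windows (all but Lalba) and in 36.8% of all windows, and no match overlapped a TTCNNNGAA match. TATAAA was in none of the 8 and in 12.3% of all windows. A match is only a run of letters, and its absence says only that the letters are not in this window.

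After removal of mitochondrial and ribosomal protein genes, 72 basal cells (50 from plate A and 22 from plate B) and 76 luminal cells (24 from plate B and 52 from plate C) passed the thresholds of the study on reads and genes. They held 69973 to 1974669 reads per basal cell and 105701 to 3241178 per luminal cell. The sorted populations carried their markers: 8 of 8 basal markers were lower and 6 of 6 luminal markers higher in luminal cells by a log2 ratio of at least 1. Basal cell 90 went against its label, with basal markers summing to 2.77 CPM (counts per 1000000 reads of the cell) and luminal markers to 5549 CPM, and luminal cell 63 held basal markers at 8922 CPM. Other cells held few markers of their own population: basal cell 82 had basal markers at 34.2 CPM, basal cell 72 had them at 181 CPM with endothelial markers at 2521 CPM, and luminal cell 54 had luminal markers at 230 CPM with fibroblast markers at 19791 CPM. None of the 5 held summed caseins above 10 CPM, and the median log2 ratio of the milk protein genes was 5.92 with and 5.98 without them.

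Milk protein genes were higher in luminal than in basal cells. All 9 genes that passed the filter on low values were higher in luminal cells by a log2 ratio of at least 1 (taken on the CPM of summed reads with 1 CPM added), where 28.3% of 14804 genes were higher and 18.2% lower. Their median log2 ratio was 5.92, beside 0.18 over all genes. Glycam1 was the gene that did not pass. The filter asked for 1 CPM or more in at least 3 cells. Wap, Ltf and Csn1s2b had a read in 0, 1 and 1 basal cells, and Lalba stayed under 1 CPM in each. Csn1s2a and Csn2 were each read in 3 basal cells, 1 of them under 1 CPM. These genes would not have passed on basal cells alone, so the filter favours a higher luminal level. The median of 5.92 is the value of Ltf, 1 of them. On plate B alone, 6 of the 9 were higher, none was lower and 3 lay within, beside 41.4% of genes higher and 17.2% lower. Of the 3 within, Mfge8 was at a log2 ratio of 0.78. Csn1s2b had 0 luminal reads and 10 basal reads in 1 cell. Wap had no read on plate B in either population, so its ratio there comes from the added CPM alone.

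Csn1s1 was at 0 to 18288 CPM in single luminal cells with a median of 4.52, and at 0 to 1048 CPM in basal cells with a median of 0. A read was found in 61 of 76 luminal and 9 of 72 basal cells. Summed over cells the levels were 2114 and 18.1 CPM, a 117-fold difference (111 to 123, conditional exact binomial interval). Most basal cells had no read of it, and 1 cell, basal cell 20, held 90.4% of its basal reads. Without that cell, the log2 ratio went from 6.79 to 9.58.

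Csn2, the β-casein gene, ranged from 0 to 29222 CPM in luminal cells with a median of 1.83. It had a read in 60 luminal and 3 basal cells, all 3 on plate A, and basal cell 20 again held 93.7% of the basal reads. The summed levels were 1964 and 25.3 CPM, a 77.5-fold difference (74.3 to 80.9), and the log2 ratio went from 6.22 to 9.56 without cell 20. Basal cells of plate B held 0 Csn2 reads.

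Csn1s2a had the widest spread in luminal cells, from 0 to 40199 CPM with a median of 1.61. It was read in 61 luminal cells but reached 10 CPM in only 22 of them, and in basal cells 383 of its 385 reads came from cell 20. The summed levels were 1502 and 4.56 CPM, a 330-fold difference (298 to 365), and the log2 ratio went from 8.08 to 10.5 without cell 20. Csn1s2b, its neighbour in the cluster, was nearly silent: it had 214 luminal reads in 3 cells, all on plate C, with 185 in luminal cell 60, and 10 basal reads in basal cell 86. Its log2 ratio of 1.36 became 0.33 without the highest cell of each population and -0.44 on plate B, where the 10 basal reads stood against 0 luminal reads.

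Csn3 was the casein found in most cells of either population. Luminal cells held 0 to 24256 CPM with a median of 124, and 66 of 76 had a read. Basal cells held 0 to 3992 CPM, and 21 of 72 had a read. Summed, this came to 2516 CPM against 145 CPM, a 17.3-fold difference (17.0 to 17.6), smaller than that of Csn1s1, Csn1s2a and Csn2. On plate B the difference was 14.2-fold, 83.7-fold without basal cell 86, which held 83.9% of the basal reads there, and 42.7-fold with luminal cell 24 left out as well.

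**Figure D1:**
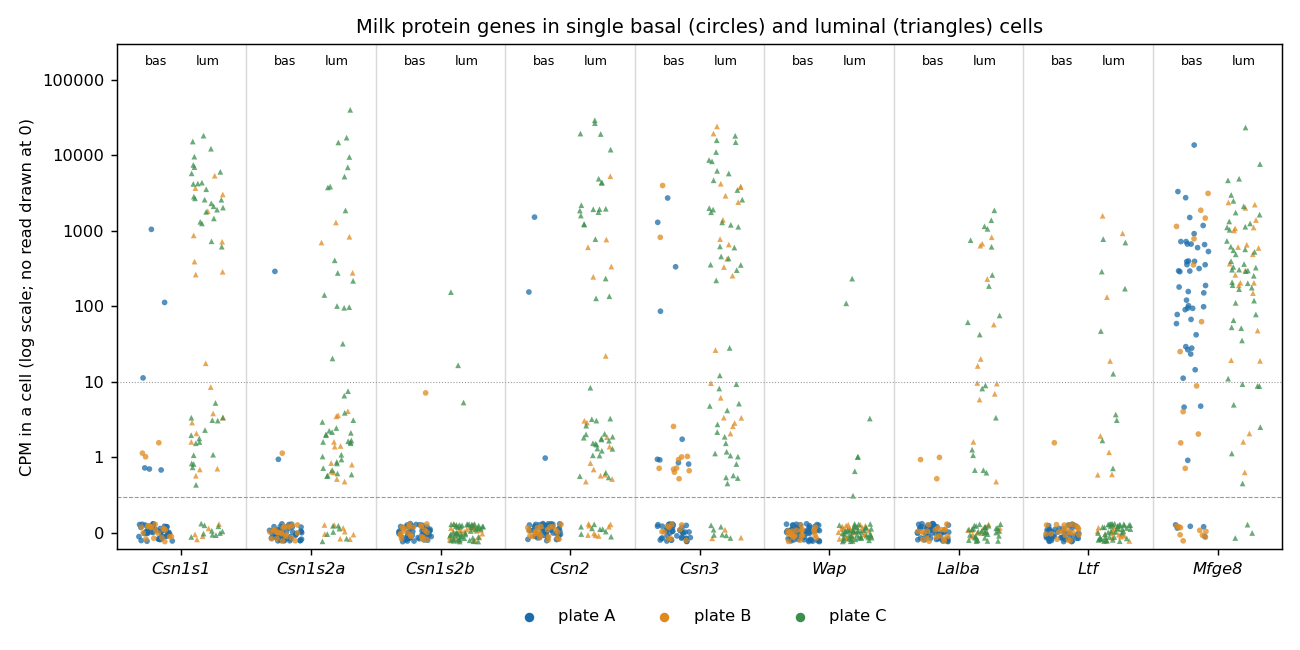
CPM of 9 milk protein genes in each passing cell on a log axis (72 basal cells as circles, 76 luminal cells as triangles), coloured by PCR plate, with cells without a read drawn at 0 below the dashed line and a dotted line at 10 CPM. For Csn1s1, Csn1s2a, Csn2 and Csn3 the luminal cells form a low band around 1 to 3 CPM and a high band that reaches 18288 CPM or more, while Mfge8 is spread over the range in both populations.

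Among the whey protein genes, Lalba and Ltf were close to absent from basal cells. Lalba was at 0 to 1871 CPM in luminal cells with a median of 0. It was read in 32 luminal cells and gave 3 single reads in 3 basal cells, all on plate B, or 145 and 0.036 CPM (a ratio of 4073, interval 1394 to 19753). Ltf had 6927 reads in 18 luminal cells, up to 1584 CPM in luminal cell 22, and 1 read in basal cells (ratio 5109, interval 917 to 201821). Thus both whey genes were present in fewer luminal cells than the main caseins.

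Wap, a leading whey protein of mouse milk, was rare. It had 550 reads in 7 of 52 luminal cells on plate C and 0 on plate B, and 425 of the reads were in luminal cell 39 and 113 in luminal cell 55. With 0 basal reads, its summed level of 4.80 CPM was at least 135-fold higher than a floor of 3 reads over the basal population, and the log2 ratio of 2.54 became 1.08 without luminal cell 39. Glycam1 had 0 reads in all 186 cells. With 3 cells as the limit for a count of 0, 0 of 76 luminal cells allows a share of up to 3.95%. For 0 of 72 basal cells it is up to 4.17%. The Clopper-Pearson upper limits are 4.74% and 4.99%. The markers of high endothelial venules, the other cells known for Glycam1, summed to 0.0087 CPM in luminal and 0.036 CPM in basal cells, with Chst4 at 0 in both.

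Mfge8 was the exception among the 9, expressed in both layers. It was read in 73 of 76 luminal and 58 of 72 basal cells, with medians of 302 and 94.3 CPM and maxima of 23449 CPM (luminal cell 45) and 13731 CPM (basal cell 47). The summed levels were 1125 and 479 CPM, a 2.35-fold difference (2.32 to 2.38). Luminal cell 45 alone held 35.6% of the luminal reads. Without the highest cell of each population the log2 ratio went from 1.23 to 0.82, on plate B it was 0.78, and it was 0.88 from the mean of CPM per cell, all under 1.

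Levels of different genes were compared per length, as RPKM, the CPM of the summed counts per kilobase of gene length. In luminal cells, 4 caseins stood close together, with Csn2 at 1753, Csn1s2a at 1633, Csn3 at 1576 and Csn1s1 at 1493 RPKM. They were followed by Mfge8 (529), Lalba (197), Ltf (22.1), Wap (8.54) and Csn1s2b (2.44). In basal cells the order of RPKM changed: Mfge8 led with 225, ahead of Csn3 (90.9), Csn2 (22.6), Csn1s1 (12.8) and Csn1s2a (4.95). There is 1 sample of each population, so these orders have no replicate check, and the closeness of the 4 caseins does not show that they were equal. How the counting treated reads shared by related genes is not given in the sources used here.

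Luminal cells fell into low and high casein levels with few between. The 5 caseins summed to under 10 CPM in 22 cells, to 10 to 28.8 CPM in 10 more, and to 221 CPM or above in the remaining 44. No luminal cell lay from 28.8 to 221 CPM, and the gap appeared on both plates, from 28.8 to 432 CPM on plate B and from 27.5 to 221 CPM on plate C. Of the 44, 39 exceeded 1000 CPM and 16 exceeded 10000 CPM. The share of a luminal cell's reads that came from caseins had a median of 0.147% and reached 10.0% in luminal cell 81.

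At least 1 casein read was found in nearly every luminal cell. At full depth, 97.4% of luminal cells (74 of 76, 90.8 to 99.7%, Clopper-Pearson) and 40.3% of basal cells (29 of 72, 28.9 to 52.5%) had a casein read. Thinned to 50000 reads each, the shares were 72.4% (55 of 76, 60.9 to 82.0%) and 9.72% (7 of 72, 4.00 to 19.0%), and in 20 further draws of the thinning they ran from 65.8 to 77.6% and from 9.72 to 15.3%. The basal share differed by plate at full depth, with 14 of the 50 plate A cells and 15 of the 22 cells on plate B, which also held luminal cells. After thinning it was 10.0% and 9.09%. Of the 21 basal cells with a Csn3 read, 15 were under 10 CPM and 13 held a single read. Reads carried between wells were not tested as a part of this low level.

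The combinations of caseins in a cell were few. At 10 CPM or more, 28 luminal cells held no casein, 17 held Csn1s1, Csn1s2a, Csn2 and Csn3 together, 10 held Csn3 alone and 7 held Csn1s1, Csn2 and Csn3. The genes were nested: all 27 cells with Csn2 at this level also had Csn1s1, which 36 of all 76 cells had, and 21 of 22 cells with Csn1s2a had Csn1s1. Csn3 was present in 31 of the 36 Csn1s1 cells and in 10 cells without it. No cell held all 5.

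**Figure D2:**
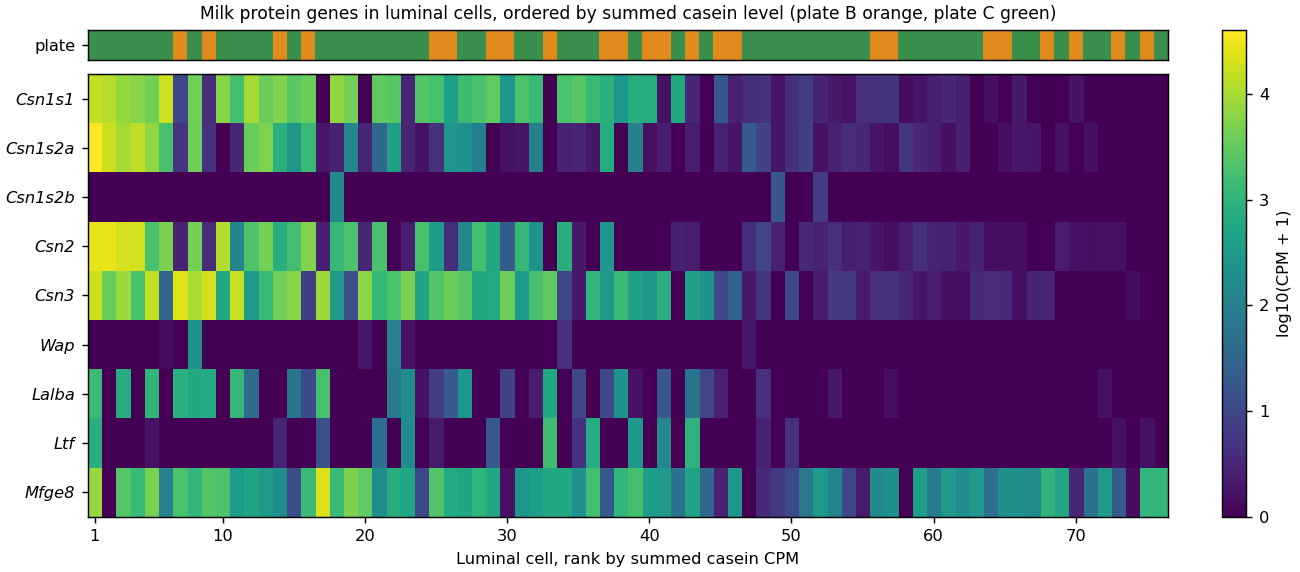
log10(CPM + 1) of 9 milk protein genes (rows) in 76 luminal cells (columns, ordered by summed casein CPM), with the PCR plate of each cell above. Csn1s1, Csn1s2a and Csn2 are bright in many of the same cells, Csn3 and Lalba also in cells dark for those 3, and the 32 cells at the right have summed caseins of at most 28.8 CPM.

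Lalba and Ltf were found with Csn3 more often than with the calcium-sensitive caseins. All 18 cells with Lalba at 10 CPM or more had Csn3 at that level, while 11 had Csn1s1 and 8 had Csn2, and in 7 of them Csn3 was the only casein. All 10 cells with Ltf at that level also had Csn3, 5 of them as the only casein. The 2 cells with Wap at that level had both Csn3 and Csn1s1. For comparison, Csn3 reached that level in 41 of all 76 luminal cells, Csn1s1 in 36, Csn2 in 27 and Csn1s2a in 22. Csn1s2a was at that level in 9 of the Lalba cells. The products of the shares would place Lalba with Csn3 in 9.71 cells, with Csn1s1 in 8.53, with Csn2 in 6.39 and with Csn1s2a in 5.21. Lalba was thus above these products for each of them, and most so for Csn3.

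Single cells show the range of these patterns. Luminal cell 81 held every main product at once, with Csn1s2a at 40199, Csn2 at 26752, Csn3 at 18181, Csn1s1 at 15283, Lalba at 1383 and Ltf at 777 CPM. Luminal cell 31 had Csn2 at 29222 and Csn1s2a at 17206 CPM with no read of Lalba or Mfge8. Luminal cells 24 and 9 of plate B had Csn3 at 24256 and 19487 CPM and Lalba at 822 and 676 CPM, with every other casein under 10 CPM. Luminal cell 36 was their converse, with the highest Csn1s1 of all (18288 CPM), Csn3 at 28.1 CPM and no Lalba read. Luminal cell 22 had the highest Ltf (1584 CPM) beside Csn3 at 2922 CPM and no read of another casein.

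Few cells held much of each gene's reads, to about the degree seen across the transcriptome. The 3 highest luminal cells held 44.2% of the Csn1s1 reads, 56.0% of Csn2, 42.3% of Csn3 and 48.9% of Lalba. Over 8709 genes of at least 10 CPM in luminal cells the median was 47.5% (quartiles 32.0 and 65.9%), so these genes were not set apart by it. Csn1s2a (68.6%) and Ltf (73.8%) lay above the upper quartile. For the caseins summed, the share was 38.9%, in cells 81, 31 and 36. In basal cells the concentration was stronger, with 99.5% of Csn1s1, 100% of Csn2 and 86.5% of Csn3 in 3 cells, beside a median of 58.9% over 7965 genes, and Mfge8 was below it at 32.4%.

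**Figure D3:**
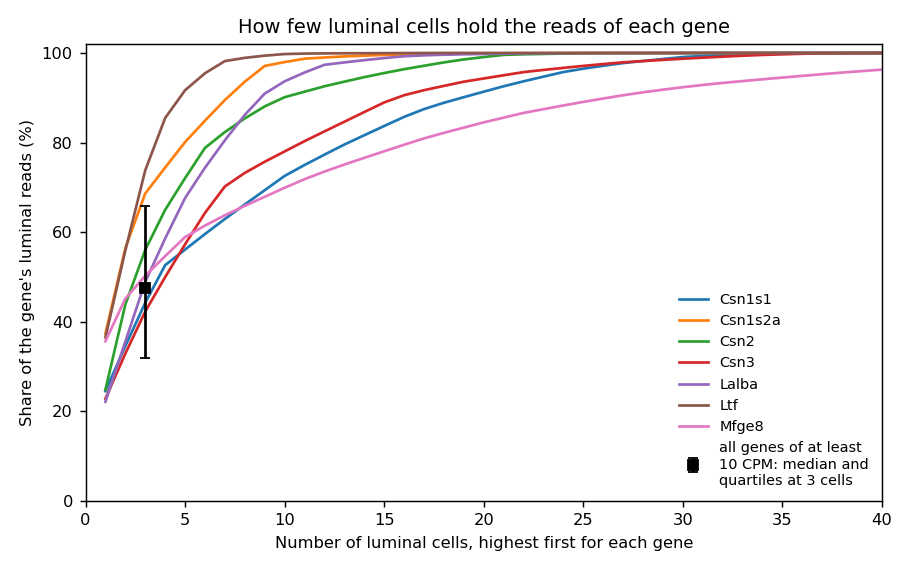
Cumulative share of each gene's luminal reads (percent) against the number of luminal cells, highest first for each gene, with the median and quartiles over 8709 genes at 3 cells as a black square. Ltf and Csn1s2a rise fastest, to 73.8% and 68.6% at 3 cells, and Mfge8 has the longest tail.

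The luminal plates differed in the calcium-sensitive caseins more than in Csn3 or Lalba. Plate C was 4.63-fold higher than plate B in Csn1s1 (2831 against 611 CPM), 11.8-fold in Csn2 (2788 against 235 CPM) and 24.1-fold in Csn1s2a (2175 against 90.4 CPM). Luminal cell 5 held 69.4% of the Csn2 reads of plate B, and without the highest cell of each plate the Csn2 levels were 2120 and 74.5 CPM. Csn3 was 1.60-fold higher on plate B, but luminal cell 24 held 52.7% of its reads there, and without the highest cell of each plate it was at 1770 CPM on plate C and 1722 CPM on plate B, so that the order turned. Ltf was 3.04-fold higher on plate B, with 61.6% of the reads there in luminal cell 22, and Lalba differed by 1.17-fold. By a log2 ratio of at least 1, 5 of the 9 genes were higher on plate C, beside 24.5% of all genes, and 1 was lower, beside 15.3%. The 5 include Csn1s2b and Wap, which had no luminal read on plate B. On plate C, 1 cell held 185 of the 214 Csn1s2b reads and 1 cell held 425 of the 550 Wap reads. The shares of cells moved less than the levels: Csn1s1 reached 10 CPM in 10 of the 24 plate B cells and 26 of the 52 plate C cells, Csn2 in 6 and 21, Csn1s2a in 4 and 18. Which animals lay on which plate is not labelled, so plate and animal cannot be told apart.

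On the basal plates, 3 of 9 genes (Csn1s1, Csn1s2a and Csn2) were higher on plate A, beside 41.6% of all genes, and Csn3 was lower, beside 13.6%. Single cells made much of these differences. Without basal cell 20, which held 90.6% of the Csn1s1 reads of plate A, the log2 ratio of plate A over B went from 4.62 to 1.65 for Csn1s1, from 5.28 to 1.78 for Csn2 and from 2.91 to -0.025 for Csn1s2a. Without basal cell 86, that of Csn3 went from -1.26 to 1.28. Mfge8 was at 519 CPM on plate A and 398 CPM on plate B, with a read in 45 of 50 and 13 of 22 cells, respectively.

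Across luminal cells thinned to 50000 reads, 3 calcium-sensitive caseins varied together. The Spearman correlation over 76 cells was 0.87 for Csn1s1 with Csn2 (0.85 over 24 cells of plate B, 0.88 over 52 of plate C), 0.72 for Csn1s1 with Csn1s2a and 0.71 for Csn1s2a with Csn2. Csn3 was less close to them, at 0.54 with Csn1s1, 0.54 with Csn2 and 0.46 with Csn1s2a. Its highest value among the members was with Lalba at 0.66 (0.56 and 0.70 by plate), and it was at 0.52 with Mfge8. Lalba was at 0.22 with Csn1s1 and 0.21 with Csn2. The gap was smaller at full depth. There Csn1s1 with Csn2 was at 0.73, Csn1s1 with Csn1s2a at 0.67 and Csn1s2a with Csn2 at 0.63. Csn3 was then at 0.54 with Csn1s1, 0.43 with Csn2, 0.52 with Csn1s2a and 0.64 with Lalba. These are descriptions across cells that share capture, plate and amplification, and the weak values of Wap, Ltf and Csn1s2b rest on few cells. The median of the 10 casein pairs was 0.50, and 0.41 to 0.49 in 20 further draws of the thinning.

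**Figure D4:**
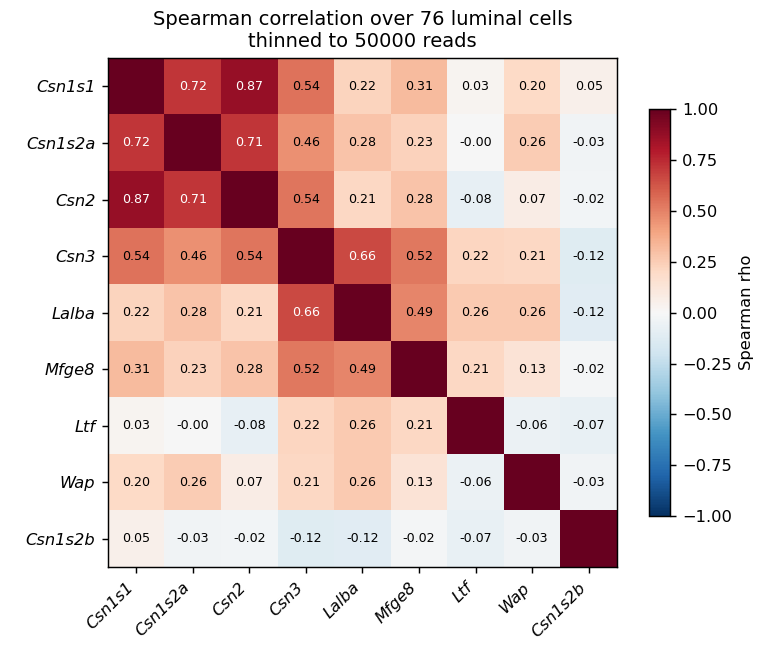
Spearman correlation between 9 milk protein genes over 76 luminal cells thinned to 50000 reads (colour from -1 in blue to 1 in red, values printed). Csn1s1, Csn1s2a and Csn2 form a block of 0.71 to 0.87, and Csn3 and Lalba pair at 0.66.

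Outside the list, the genes whose level across luminal cells was most like the summed caseins were Trf at a Spearman correlation of 0.85, Mgst1 and Lcn2 at 0.77, Wfdc18 at 0.72, Plet1 at 0.69, Pde4b and Igfbp5 at 0.67, Cp and Car2 at 0.63 and Ogfrl1 at 0.61. The median over 8425 genes with a read in at least 8 of these cells was 0.028. Trf encodes transferrin, the iron carrier of plasma and rodent milk, and its correlation was 0.89 for the cells of plate B and 0.84 for those of plate C. Lcn2 (lipocalin 2, a siderophore binder) and Cp (ceruloplasmin, a copper-carrying ferroxidase) encode further secreted proteins. Of the marker lists, the summed luminal progenitor markers (Kit, Elf5, Cd14, Aldh1a3 and Cd55) were at 0.52. The summed mature luminal markers (Prlr, Esr1, Pgr, Areg and Cited1) were at -0.48, and both sums kept their sign on each plate. Cd14 made up 285 of the 555 CPM of the first sum and Prlr 4531 of the 6425 CPM of the second. By gene, Cd14 was at 0.42, Elf5 at 0.41, Kit at 0.36, Cd55 at 0.26 and Aldh1a3 at 0.066 (-0.070 on plate C). Without thinning, Elf5 was at 0.62 and Cd14 at 0.42. Cited1 was at -0.46, Prlr at -0.39, Pgr at -0.33, Areg at -0.32 and Esr1 at -0.21. Total reads of the cell were at -0.12 and the mitochondrial share at 0.0088.

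Other genes of milk and lactation were also higher in luminal cells, in 10 of the 11 that passed the filter, beside 28.3% of all genes, with a median log2 ratio of 4.00. Muc1, a mucin of the apical and milk fat globule membrane, had 25073 luminal reads and 0 basal reads. Btn1a1, butyrophilin of the same membrane, was at 113 against 0.036 CPM, and Spp1 (osteopontin) at 1851 against 9.02 CPM. Plin2, which coats lipid droplets, was at 444 against 103 CPM. B4galt1, the galactosyltransferase that α-lactalbumin modifies, was within a log2 ratio of 1 (0.78), at 790 and 461 CPM, and was read in all 76 luminal cells although Lalba was read in 32. Lpo (lactoperoxidase) did not pass the filter. Muc1, Folr1, Btn1a1 and Pigr, read in 0, 1, 2 and 2 basal cells, would not have passed on basal cells alone. On plate B, 9 of the 11 were higher, beside 41.4% of all genes, and Cel (bile salt-dependent lipase) was lower, beside 17.2%.

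The regulators of milk protein genes were divided. Of 12, 7 were higher in luminal cells, beside 28.3% of all genes, 2 were lower, beside 18.2%, and 3 lay within, with a median log2 ratio of 1.20. On plate B, 5 were higher (41.4% of all genes), 3 lower (17.2%) and 4 within, with a median of 0.82 beside 0.48 over all genes. The prolactin receptor Prlr was at 4531 against 60.3 CPM and was read in all 76 luminal cells, and the transcription factors Elf5 and Ehf were at 50.0 against 0.012 CPM and 258 against 5.56 CPM. Elf5 had a read in 1 basal cell and would not have passed the filter on basal cells alone. Stat5a was at 111 against 47.1 CPM. Cebpb and Nfib were lower in luminal cells, with log2 ratios of -2.04 and -1.35. Within luminal cells, Ehf (0.49), Nfib (0.44), Elf5 (0.41), Cebpb (0.39) and Nr3c1 (0.31) had positive correlations with the summed caseins. Prlr was at -0.39 and Gata3 at -0.23. The others lay nearer to none, with Stat5a at -0.026, Stat5b at 0.065, Cish at -0.074, Jak2 at -0.083 and Socs2 at -0.11.

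The genes between the outermost caseins did not share their level. Odam had 80 luminal reads in 4 cells and 0 basal reads, Gm7337 had 18 and 2, and Prr27 had 0 in every passing cell. Gm25066, Gm24314 and BC037156 are annotated there and were not analysed here.

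Caseins summed to 10 CPM or more in 8 basal cells and to 100 CPM or more in 7 of them. Basal cell 20 of plate A was the only one with 4 caseins, Csn2 at 1521, Csn3 at 1297, Csn1s1 at 1048 and Csn1s2a at 290 CPM. It held all 8 basal markers (7461 CPM, Acta2 at 4033) and all 6 luminal markers (3975 CPM), with Kit at 208 CPM. Csn3 was the only casein at that level in basal cells 86 (3992 CPM), 27 (2726 CPM), 64 (821 CPM) and 9 (334 CPM). These held basal markers at 2691, 6612, 8011 and 14747 CPM and luminal markers at 719, 857, 34.0 and 2043 CPM. Of these luminal sums, Epcam made up 710, 780, 8.50 and 1961 CPM. Epcam was read in 71 of all 72 basal cells. Cell 6 had Csn2 at 155 and Csn3 at 86.1 CPM, and cells 13 and 53 had Csn1s1 at 112 and 11.2 CPM. Cells 6, 13 and 53 held basal markers at 11731, 3251 and 9610 CPM and luminal markers at 527, 3678 and 1310 CPM. Epcam made up 421, 446 and 1213 CPM of these luminal sums. Cell 13 also had the highest mature luminal sum among passing basal cells (3458 CPM) and endothelial markers at 988 CPM. Luminal marker sums in the 8 cells thus had no fixed level, from 34.0 to 3975 CPM. Cells 13 and 20 were the only passing basal cells with a read of all 6 luminal markers. None of the 8 had a Lalba, Ltf or Wap read, and Elf5 was at 0 in each. More than 1 cell at a capture site was not tested here as a part of these values.

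**Figure D5:**
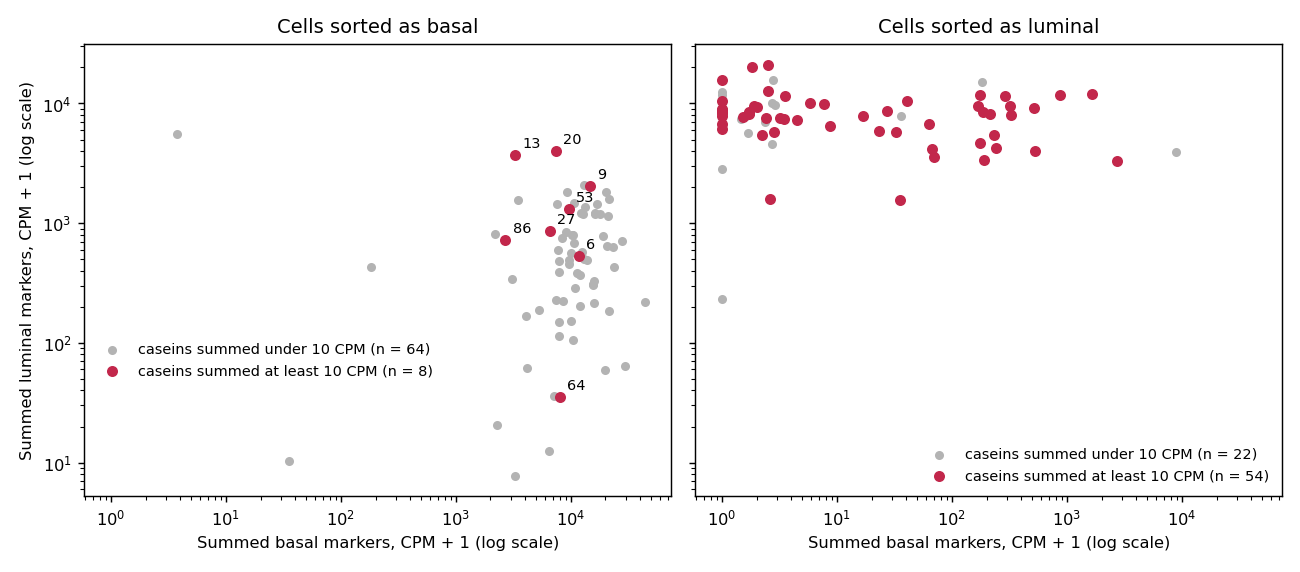
Summed CPM + 1 of 8 basal markers (horizontal) and 6 luminal markers (vertical), on log axes, in cells sorted as basal (left, n = 72) and luminal (right, n = 76), with cells of at least 10 CPM summed caseins in red and the basal ones numbered. Basal cells 13 and 20 stand near 3678 and 3975 CPM of luminal markers, and cell 64 stands at 34.0 CPM.

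Markers of other cell types were summed too, as blood cells also make Ltf and Mfge8. Neutrophil markers summed to 6.24 CPM in luminal and 0.53 CPM in basal cells, with a read for 3 and 2 of 6 genes and Ngp and S100a9 at 0 in both. Macrophage markers summed to 0.39 and 1.46 CPM. Endothelial markers were at 148 CPM in luminal and 214 CPM in basal cells, fibroblast markers at 1161 and 711 CPM and adipocyte markers at 34.3 and 23.9 CPM, with a read for all 5 endothelial and all 5 fibroblast genes in both. In single cells, the highest basal endothelial sum (2897 CPM, cell 71) came with no Mfge8 read. Basal cell 72, at 2521 CPM of endothelial markers, held Mfge8 at 785 CPM. The highest basal fibroblast sum (23080 CPM, cell 56) came with Mfge8 at 669 CPM. Luminal cell 5 had the highest neutrophil sum (334 CPM) and no Ltf read. The part of such cells in the milk protein levels was not tested.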

How the data were processed

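The Fluidigm C1, a microfluidic system, captured each cell and made cDNA from its polyadenylated RNA, and Nextera XT libraries were read on an Illumina HiSeq. For the counts, the authors used Subread against mm10 and then featureCounts with the RefSeq gene models that come with it. The deposited files hold raw counts per gene and cell, beside a gene length in bases that served for RPKM. Versions, strand setting and the treatment of reads shared between genes are not given in the sources used here. Of 27179 identifiers, 25275 matched a RefSeq symbol, and the rest, with 1.94% of reads, were left out, as were 15 mitochondrial and 86 ribosomal protein genes. The series-wide table was left unused.

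Basal cells with at least 50000 reads and 1000 genes and luminal cells with at least 100000 reads and 1500 genes were kept, and genes with at least 1 CPM in at least 3 cells (14804). Doublets were not called, since capture sites had been viewed by microscope. No 2 cells had identical counts. Counts were summed per population, and log2 ratios were taken on CPM with 1 CPM added. Sums have exact Poisson intervals, fold differences conditional exact binomial intervals and shares of cells exact binomial intervals, all at 95%. They cover counting error only, since PCR reads without molecular identifiers are not independent molecules. A floor is 3 reads. Cells are not replicates, so no test was made. For shares of cells with a read and correlations, each cell was thinned to 50000 reads. The ratio step was tested on simulated data. Python 3.11.15, numpy 2.4.6, scipy 1.17.1, pandas 2.3.3, matplotlib 3.10.9, R 4.3.3 and edgeR 4.0.16 (TMM factors) were used.

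The members and lists were chosen with earlier results of these data known. The text names the members, 12 other milk and lactation genes, 12 regulators, the annotated genes between the outermost caseins, the 10 genes most like the summed caseins, markers, and the cells with most reads of each member; further cells were named after their values were seen.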

Additional observations from a re-analysis of the deposited data

Results flagged for a closer look

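Wells under the thresholds, which no comparison used, also held casein reads. In 24 basal wells with 2312 to 37466 reads, caseins came to 124 CPM (33 reads in 13 wells, exact Poisson interval 85.2 to 174), above the 11.2 CPM that a count of 0 allows. Of these, 1 of 10 wells of plate A had a casein read (1 read in all) and 12 of 14 wells of plate B had one (32 reads, 177 CPM, 121 to 250). In 14 luminal wells, all of plate C, with 4914 to 84581 reads they came to 587 CPM (243 reads in all 14 wells, interval 516 to 666), above a limit of 7.25 CPM. Over summed reads, passing cells held 193 and 8098 CPM. The basal value rests on few cells, as 3 cells held 88.1% of the basal casein reads. Passing cells had a median of 0 CPM among basal (0.70 on plate B) and 1473 CPM among luminal cells. Thinned to 50000 reads, 2 of the 22 passing basal cells of plate B had a casein read. These wells had no read of Wap, Lalba, Glycam1 or Ltf, and Mfge8 was at 33.7 CPM in the basal and 19.3 CPM in the luminal wells.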

How the results depend on the processing

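Across 35 other settings of the 5 main values, 14 stayed within the interval and 21 moved. The interval covers counting error, except for the correlation, where it spans the thinning draws and the main value. Shares cannot change sign, and the median log2 ratio and the median correlation did not. Among 99 such values of single genes, 42 stayed, 56 moved and 1 turned, that of Csn1s2b on plate B (-0.44). Csn1s2b, Wap and Mfge8 were the genes whose log2 ratio came under 1 in a setting. With 10 CPM added, Csn1s2b was at 0.23 and Wap at 0.57. Mfge8 was at 0.98 with median-of-ratios factors and at 0.88 from the mean of CPM per cell. Without the highest cell of each population, Csn1s2b was at 0.33 and Mfge8 at 0.82. On plate B all 3 were under 1, but Wap had no read there in either population. The median log2 ratio of the milk protein genes, 5.92, became 5.73 when no mitochondrial or ribosomal protein genes were removed, 5.02 without the gene filter, 6.27 with 0.1 and 3.95 with 10 CPM added, 6.46 on plate B and 5.32 without the highest cell of each population. It was 5.81 with TMM and 5.80 with median-of-ratios factors, which moved the median of all genes by -0.15 and -0.17. The luminal share of cells with a casein read, 72.4%, was 97.4% at full depth, 57.9% for 5 reads or more and 47.4% for 2 caseins or more, and the basal share of 9.72% was 40.3% at full depth. The share of luminal casein reads in 3 cells, 38.9%, was 36.3% by CPM, 36.4% after thinning, 69.3% for plate B, 46.9% for plate C and 50.8% if Csn3 was left out. The median casein pair correlation, 0.50, was 0.51 by Pearson, 0.56 within plate B, 0.61 within plate C and 0.63 over the 4 caseins read in at least 8 cells. Leaving out basal cell 90 with luminal cell 63, the 5 cells poor in their own markers or against their label (median log2 ratio 5.98), or basal cell 20 was chosen after seeing the data. Depth limits the detection of caseins under about 10 CPM, and 1 sample a population limits every comparison. No paired analysis was possible because a number shared by a basal and a luminal cell only names them and the results come from no test.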
